A study of Mus musculus with 24 samples.

Results

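The 10 immediate early genes studied here are Ier2 and genes of the AP-1 and EGR families. They were followed through the differentiation of 3T3-L1 cells, a mouse fibroblast line that turns into adipocytes after hormonal induction. The genes were Fos, Fosb, Fosl1, Fosl2, Jun, Junb, Jund, Egr1, Egr2 and Ier2. They were chosen by symbol, and each was read at 1 annotated 3′UTR, the entry of that symbol with the highest mean read count over the 24 libraries. They are 10 of 26995 gene symbols, and the symbols together hold 91830 3′UTR entries. Fosb and Egr2 have 2 entries each, whose total counts differ by at most 3 and 18 reads in a library, and the other 8 genes have 1. All 10 had enough reads to be tested, among 10186 tested entries for newly made RNA and 26364 for total RNA. Cells were grown to confluence in calf serum before induction, and were harvested at day −2 and at days 1, 3 and 7 after induction. Differentiation medium, applied at induction, held fetal bovine serum, dexamethasone, 3-isobutyl-1-methylxanthine and insulin, and was replaced at day 3 by a maintenance medium with serum and insulin only. At each day the culture medium held either DMSO, the vehicle control, or 0.5 µM ML-792, an inhibitor of the enzyme that activates the small protein modifier SUMO. Each of the 8 combinations of day and treatment had 3 biological replicates, lettered A, B and C, all of 1 cell line, and every culture received 100 µM 4-thiouridine for 45 min before harvest.

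Immediate early genes are switched on within minutes of a serum or growth factor stimulus without new protein synthesis, and their mRNAs are short-lived. FOS and JUN proteins pair through leucine zippers to form the transcription factor AP-1, while EGR proteins bind DNA through zinc fingers. In 3T3-L1 cells the hormonal cocktail is known to induce Fos and Egr2 transiently in the first hours, and Egr2, also called Krox20, is known as an early promoter of adipogenesis.

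In SLAMseq, 4-thiouridine built into new RNA is read as a T-to-C change, so that a read with at least 1 such change is taken to come from RNA made in the labelling window. A sequencing error or a variant can give the same change, and how many labelled reads arose that way was not measured here. These reads are called labelled reads here, and all reads of the same library, the QuantSeq measure, are called total reads. Libraries held 13554718 to 27013352 total reads, of which 115709 to 820046 were labelled. The labelled part of a DMSO library averaged 3.17% at day −2 and 1.27%, 1.03% and 1.03% at days 1, 3 and 7, and that of an ML-792 library averaged 2.83%, 1.06%, 0.958% and 0.837%. Labelled counts were scaled by the total reads, so this fall is carried by most genes: the median tested entry moved by -1.23, -1.63 and -1.51 on the log2 scale at days 1, 3 and 7 against day −2 in DMSO. Member values are therefore given beside those medians. Uptake of 4-thiouridine on each day was not measured here, so a fall in labelled reads is not by itself a fall in RNA made. Cell state followed the labels: Adipoq, which encodes adiponectin, averaged 285 normalised total reads at day −2 and 107728 at day 7 in DMSO, Fabp4 rose from 1005 to 147935, and the fibroblast receptor gene Pdgfra went from 2721 to 458, while Cd34, another pre-adipocyte marker, never exceeded 19 reads. Of the markers that define macrophages and endothelium, Ptprc was at 0 in every library and Adgre1, Cdh5 and Kdr at no more than 5 reads, and the 7 macrophage markers summed to 95.3 to 446 reads.

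The 3′UTR is the region that was sequenced and the part of an early gene mRNA that holds its AU-rich elements, in which the pentamer ATTTA recurs. Windows of 30 bases around such pentamers are shown because the close spacing of pentamers in Fos can be read beside the looser spacing in other members. They are written 5′ to 3′ on the strand of the gene, taken from the mouse genome build GRCm38 (mm10) with ATTTA in capitals.
Fos, chr12:85477100-85477129, plus strand: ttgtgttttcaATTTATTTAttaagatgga
Fosl2, chr5:32156864-32156893, plus strand: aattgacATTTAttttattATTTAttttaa
Fosl1, chr19:5455866-5455895, plus strand: aagggcagctgctATTTAttttcctaaaga
Jun, chr4:95049207-95049236, minus strand: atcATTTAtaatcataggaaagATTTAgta
Junb, chr8:84977127-84977156, minus strand: aatatatttgtgtATTTAacagggagggga
Jund, chr8:70700358-70700387, plus strand: ccgattccgccctATTTAtgtttctactcg
Egr2, chr10:67541644-67541673, plus strand: tcagtgtatatccATTTAgattttgtgtat
The 811-base 3′UTR of Fos, at chr12:85476459-85477269, held 4 ATTTA pentamers, a number reached by 10.1% of the 818 entries of similar length. In the Fos window 2 of them overlap, and the second lies within the nonamer TTATTTATT. The nonamer was present in 9.06% of all 6214 entries read and, among the members, in Fos and Fosl2 only. Of entries similar in length to Fos 4.4% held it, and of those similar to Fosl2 21.7%. Jun held 4 pentamers in 1231 bases, Fosl2 8 in 4651, Egr2 13 in 6505, Junb and Egr1 2 each, and Fosb, Fosl1 and Jund 1 each. Numbers at least as high were common among entries of similar length. They were reached by 22.2% for Junb, 23.6% for Jun, 38.7% for Egr2, 53.9% for Fosl2 and 54.8% for Egr1. For Jund, Fosl1 and Fosb the shares were 55.6%, 59.7% and 94.6%. Ier2 held none in 755 bases, whereas ATTTA occurred in 74.8% of all entries read and in 66.4% of those of similar length. These matches were found on the strand of the gene and describe letters only.

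The promoters were searched from 250 bases before to 50 after each annotated start, in RefSeq sequence of the same build. Egr2, Fos, Fosb, Fosl2, Jun, Junb and Jund were in the promoter table, and Fosl1, Egr1 and Ier2 were not. The CArG box, the sequence bound by serum response factor, occurred on either strand in 1.63% of 32851 promoters. Among the members searched it occurred in Egr2 only. Sites more than 250 bases upstream of a start, and any in Fosl1, Egr1 or Ier2, could not be seen by this search. TATAAA, searched on the strand of the gene, occurred in 8.32% of promoters and in Fos and Junb. The matches in Egr2 and Fos are shown, with the motif in capitals.
Egr2, chr10:67537484-67537513, plus strand, CArG box: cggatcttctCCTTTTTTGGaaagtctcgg
Egr2, chr10:67537787-67537816, plus strand, CArG box: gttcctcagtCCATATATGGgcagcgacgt
Fos, chr12:85473845-85473874, plus strand, TATAAA: tcacagcgcttcTATAAAggcgccagctga
Searched on both strands, the cyclic AMP response element TGACGTCA and the AP-1 site TGANTCA were found in 0 member promoters, against 1.79% and 7.81% of all promoters. TGACGNAA occurred in Fosb (1.59% of all), and the EGR site GCGNGGGCG in Fosb and Fosl2 (5.55% of all). Matches of TGACGNAA and GCGNGGGCG lie close together in Fosb without overlap.

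From day −2 to day 1 of normal differentiation, labelled reads of most of the 10 genes fell. In DMSO 9 of the 10 genes were called lower in labelled reads at an adjusted p under 0.01 in edgeR's quasi-likelihood test, where 18.6% of all tested entries were called lower. Fos, which encodes the founding AP-1 subunit, had 682, 954 and 869.6 normalised labelled reads in the DMSO libraries of day −2 and 18.7, 10.8 and 18.5 at day 1. Every day 1 library lay far below every day −2 library, a 51.8-fold difference with a log2 fold change of -5.69 (SE 0.40, adjusted p = 5.5e-16 by edgeR, n = 3). In bulk RNA a fall of this kind cannot be told apart between fewer cells making the transcript and less made per cell. Fosb, a close relative of Fos, was counted at 31 to 133 labelled reads per library at day −2 and at 3 to 7 at day 1. The pooled counts, corrected for depth, gave a day 1 level of 0.0478 of that at day −2, with a 95% exact interval of 0.0252 to 0.0831 that covers counting error only.

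The Fos-related proteins FRA-1 and FRA-2 are known to lack the strong transactivation domain of FOS. Fosl1, which encodes FRA-1, had 140.2, 83.7 and 94.9 labelled reads at day −2 and 80.5, 86.3 and 74.1 at day 1. These ranges overlapped, and the log2 fold change of -0.40 (SE 0.39, adjusted p = 0.41) was above the median of all entries. Fosl1 total RNA was higher at day 1, at 1688, 1889.8 and 1632 reads against 662, 417 and 531, a log2 fold change of 1.69 (SE 0.18, edgeR adjusted p = 8.5e-06). Fosl1 was the only member called higher in total reads at day 1, where 5.99% of all entries were. Fosl2, which encodes FRA-2, fell in labelled reads from 602, 285 and 447 to 155, 82.7 and 128 (log2 fold change -1.87, SE 0.35, adjusted p = 6.6e-05), with no overlap. Its total RNA, at 2868, 1629 and 2461 reads at day −2 and 3031, 2381 and 2777 at day 1, overlapped between the days (0.24, SE 0.21, adjusted p = 0.48).

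**Figure D1:**
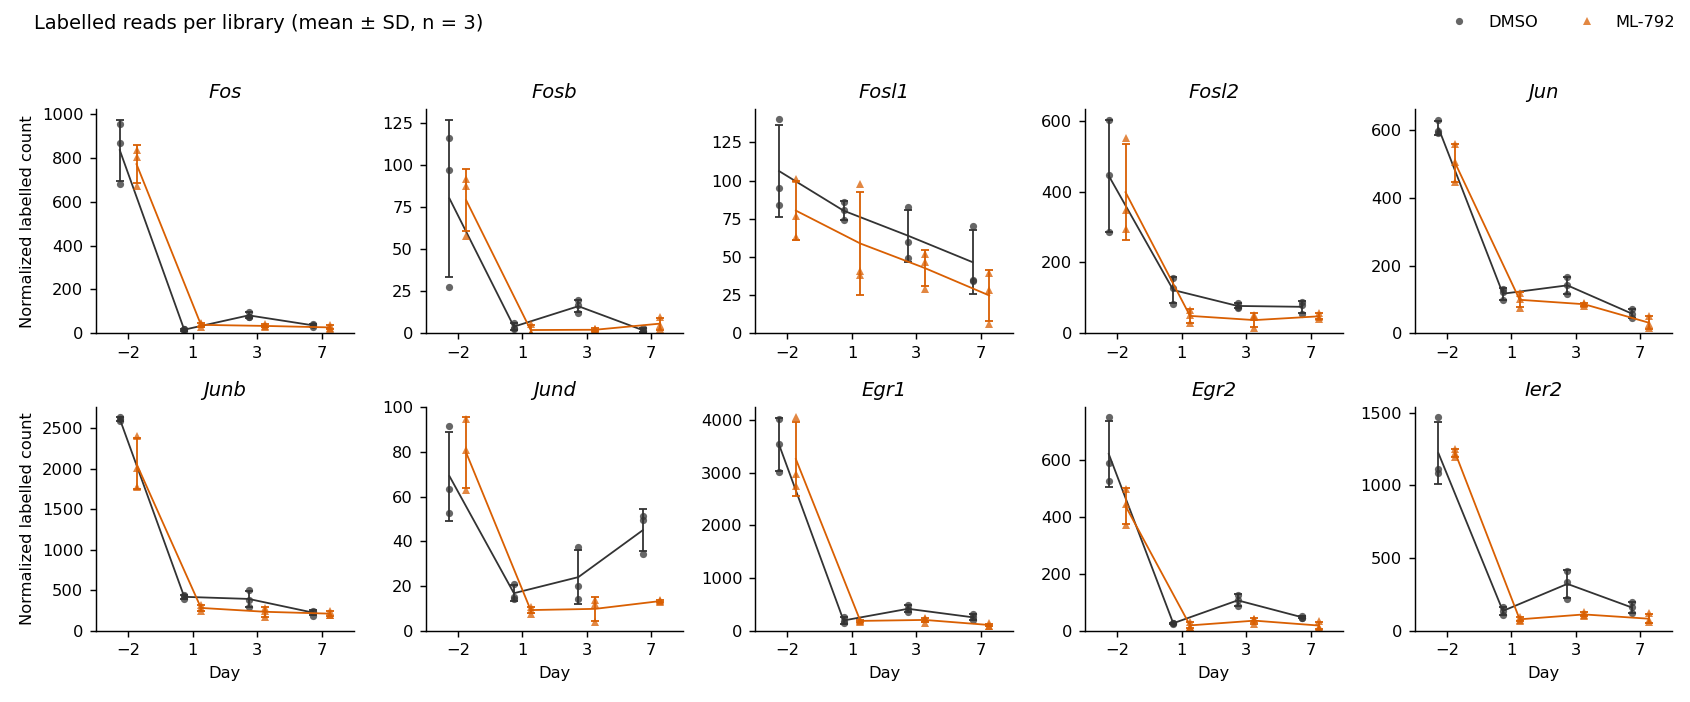
Normalised labelled reads (linear axis from 0) of each gene in every library, by day, for DMSO and ML-792; points are libraries and lines join the group means with bars of 1 SD (n = 3). All genes but Fosl1 show day 1 DMSO libraries below every day −2 DMSO library, and Fos in DMSO is lowest at day 1, at 10.8 to 18.7 reads.

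The JUN genes were called lower as well, with smaller fold changes than Fos and Fosb. Jun, the main partner of FOS in AP-1, went in DMSO from 599, 591 and 632 labelled reads at day −2 to 131, 97.1 and 122 at day 1, a log2 fold change of -2.38 (SE 0.33, edgeR adjusted p = 2.5e-07). Junb, which encodes a JUN protein known to dampen some JUN activities, went from 2598, 2611 and 2644 to 394, 436 and 429 (-2.64, SE 0.29, adjusted p = 3.5e-10). Jund, the JUN gene known for steady rather than induced expression, went from 63.3, 52.9 and 91.4 to 15.0, 14.4 and 21.0 (-2.03, SE 0.47, adjusted p = 0.00084). In each of the 3 genes all day 1 libraries were below all day −2 libraries, a lack of overlap that 51.7% of all entries shared in either direction. Leaving out a replicate letter removed it from every condition of a fit, so that 2 libraries per condition remained. Without replicate A, Fosl2 and Jund were no longer called (adjusted p = 0.014 and 0.028), and without replicate C Jund was not (0.021). In total reads Junb fell from between 14439 and 15228 to between 5722 and 6099 reads (log2 fold change -1.33, SE 0.17, adjusted p = 3.7e-05), whereas Jun (-0.54, adjusted p = 0.025) and Jund (-0.53, adjusted p = 0.064) did not pass the threshold.

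The EGR genes and Ier2 fell by 3.16 to 4.54 on the log2 scale in labelled reads. Egr1, a zinc finger factor induced by serum, went in DMSO from 4023, 3021 and 3549 labelled reads at day −2 to 265, 144 and 178 at day 1. The groups were far apart, with an 18.1-fold difference and a log2 fold change of -4.17 (SE 0.31, edgeR adjusted p = 2.4e-15). Egr2 went from 748, 587 and 524 to 28.1, 24.3 and 26.9, a 23.3-fold difference (-4.54, SE 0.38, adjusted p = 7.7e-14). Ier2, an early serum response gene whose protein is found in the nucleus, went from 1086, 1110.1 and 1471 to 137, 108 and 165 (-3.16, SE 0.33, adjusted p = 9.6e-11). Their total RNA fell too, 5.88-fold for Egr1, 6.63-fold for Egr2 and 3.37-fold for Ier2. In total reads 6 members were called lower at day 1, where 7.87% of all entries were called lower, and Fos fell most, from 2789.8, 4131 and 3611 to 272, 201 and 227 reads (log2 fold change -3.91, SE 0.28, adjusted p = 1.5e-07). Without replicate A, Fosb was not called lower in total reads (adjusted p = 0.018).

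Scaling labelled counts by labelled reads in place of total reads removed most of the shared fall, so that the median entry moved by -0.13 at day 1. Under that scaling 7 members were called lower, against 4.14% of the 8012 entries tested, and Fosl2 (adjusted p = 0.075) and Jund (0.11) were not called.

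Days 1, 3 and 7 are each compared with the same day −2 libraries, so these comparisons share their controls. At day 3 in DMSO 9 members were called lower in labelled reads (31.7% of all entries) and at day 7 8 were (28.6% of all entries). Fos stood at 73.9, 72.9 and 97.3 labelled reads at day 3 and at 40.5, 28.1 and 38.7 at day 7. The log2 fold changes against day −2 were -3.36 (SE 0.35, edgeR adjusted p = 5.5e-11) and -4.54 (SE 0.38, adjusted p = 2.4e-14). Egr1 stood 8.46-fold below day −2 at day 3 and 13.8-fold below it at day 7, and Junb 6.65-fold and 11.7-fold. Fosl1 was called at neither day (-0.73, adjusted p = 0.11, and -1.19, adjusted p = 0.013). Fosb at day 7 rested on 1 to 3 reads per library, a level of 0.0227 of that at day −2 (95% exact interval 0.00732 to 0.0536). Without replicate A or without replicate C, Fosb (adjusted p = 0.038 and 0.025) and Jund (0.094 and 0.028) were not called at day 3. Scaled by labelled reads, 5 members were called lower at day 3 (8.65% of entries) and 8 at day 7 (8.6%).

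**Figure D2:**
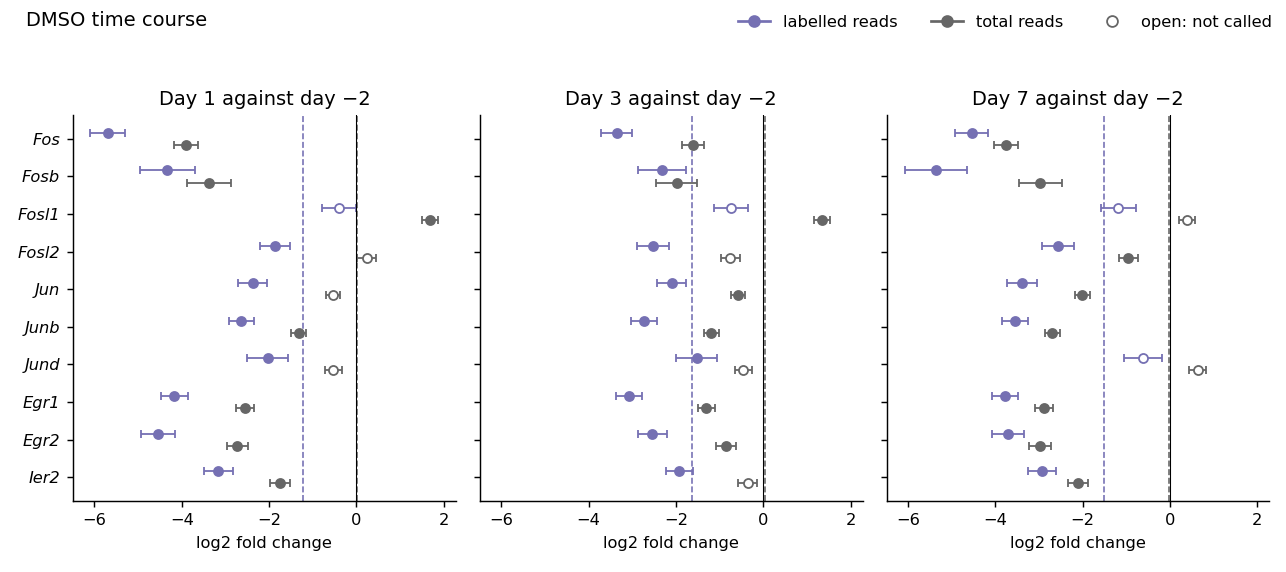
Log2 fold change against day −2 in DMSO at days 1, 3 and 7 for labelled and total reads of each gene, with bars of 1 SE; filled points passed an adjusted p of 0.01 and dashed lines mark the median of all tested entries. Labelled changes of Fos, Egr1 and Egr2 lie left of the labelled median on every day, and Fosl1 total reads lie right of 0 at days 1 and 3.

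Between day 1 and day 3, some of the 10 genes were higher again in control cells. In DMSO labelled reads 4 members were called higher at day 3 than at day 1, where 1.48% of all entries were called higher. They were Fos (log2 fold change 2.34, SE 0.36, edgeR adjusted p = 6.9e-06), Egr2 (2.01, SE 0.35, 5.4e-05), Ier2 (1.24, SE 0.31, 0.0071) and Egr1 (1.09, SE 0.28, 0.0087). Egr2 stood at 86.0, 127 and 107 labelled reads at day 3, and Ier2 at 218, 335 and 415. For all 4 genes every day 3 library was above every day 1 library (22% of all entries did not overlap), while the median entry moved by -0.33. The same 4 genes were called higher in total reads, with log2 fold changes of 2.30 for Fos, 1.88 for Egr2, 1.40 for Ier2 and 1.25 for Egr1, where 9.36% of all entries were called higher. Fos total reads went from 272, 201 and 227 at day 1 to 696, 1342 and 1421 at day 3 (adjusted p = 7.4e-06). Fosb had the same direction (labelled log2 fold change 2.01, adjusted p = 0.05) but did not pass the threshold. No JUN gene was called in either measure, and Fosl2 total reads were lower (-0.99, SE 0.22, adjusted p = 0.0027; 9.7% of all entries were called lower). The labelled calls of Ier2 and Egr1 were lost without replicate A (adjusted p = 0.051 and 0.025) and without replicate C (0.16 and 0.18), and in total reads Egr1 was lost without replicate C (0.014) and Fosl2 without either letter (0.049 and 0.036).

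From day 3 to day 7 in DMSO the loss showed in total RNA. In total reads 7 members were called lower, where 3.8% of all entries were: Fos, Fosl1, Jun, Junb, Egr1, Egr2 and Ier2, by 1.94-fold (Fosl1) to 4.45-fold (Fos). Egr2 total reads went from 1600.0, 1834 and 1547 to 356, 365 and 414, with no overlap (log2 fold change -2.13, SE 0.23, edgeR adjusted p = 1.9e-05). In labelled reads 0 members were called by edgeR, with 7 at an unadjusted p under 0.05. DESeq2 called 1, with 8 at an unadjusted p under 0.05, and 0.255% of all entries were called by edgeR. That share is for the adjusted threshold. The share of all entries at an unadjusted p under 0.05 was not counted, so the 7 and 8 have no background.

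Jund moved the other way. Its DMSO total reads were 876, 743 and 1198 at day 3 and 2107, 1869 and 2028 at day 7, every day 7 library being above every day 3 library. The log2 fold change was 1.09 (SE 0.20, edgeR adjusted p = 0.0012), and 4.94% of all entries were called higher. Without replicate A the Jund and Fosl1 changes were not called (adjusted p = 0.096 and 0.095), and without replicate C that of Fosl1 was not (0.031). Against day −2 Jund was 1.55-fold higher at day 7 (adjusted p = 0.015, not called), while 8 members were called lower in total reads (16.9% of all entries), from 1.95-fold for Fosl2 to 13.6-fold for Fos. Of those 8, Fosl2 was lost without replicate A (0.089) and without replicate C (0.016), and Fosb without replicate A (0.012).

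At day 3 against day −2 the total picture was mixed. In total reads 6 members were called lower (16.4% of all entries), and Fosl1 was called higher (log2 fold change 1.34, SE 0.18, edgeR adjusted p = 2.4e-05; 14.6% of all entries). Ier2, at 4232, 6082 and 6463 total reads, overlapped its day −2 range of 5763 to 8356 (-0.35, adjusted p = 0.2), although its labelled reads were 3.79-fold below day −2. Jun, Fosb and Egr2 were not called without replicate A (adjusted p = 0.14, 0.072 and 0.14) or without replicate C (0.04, 0.033 and 0.014).

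**Figure D3:**
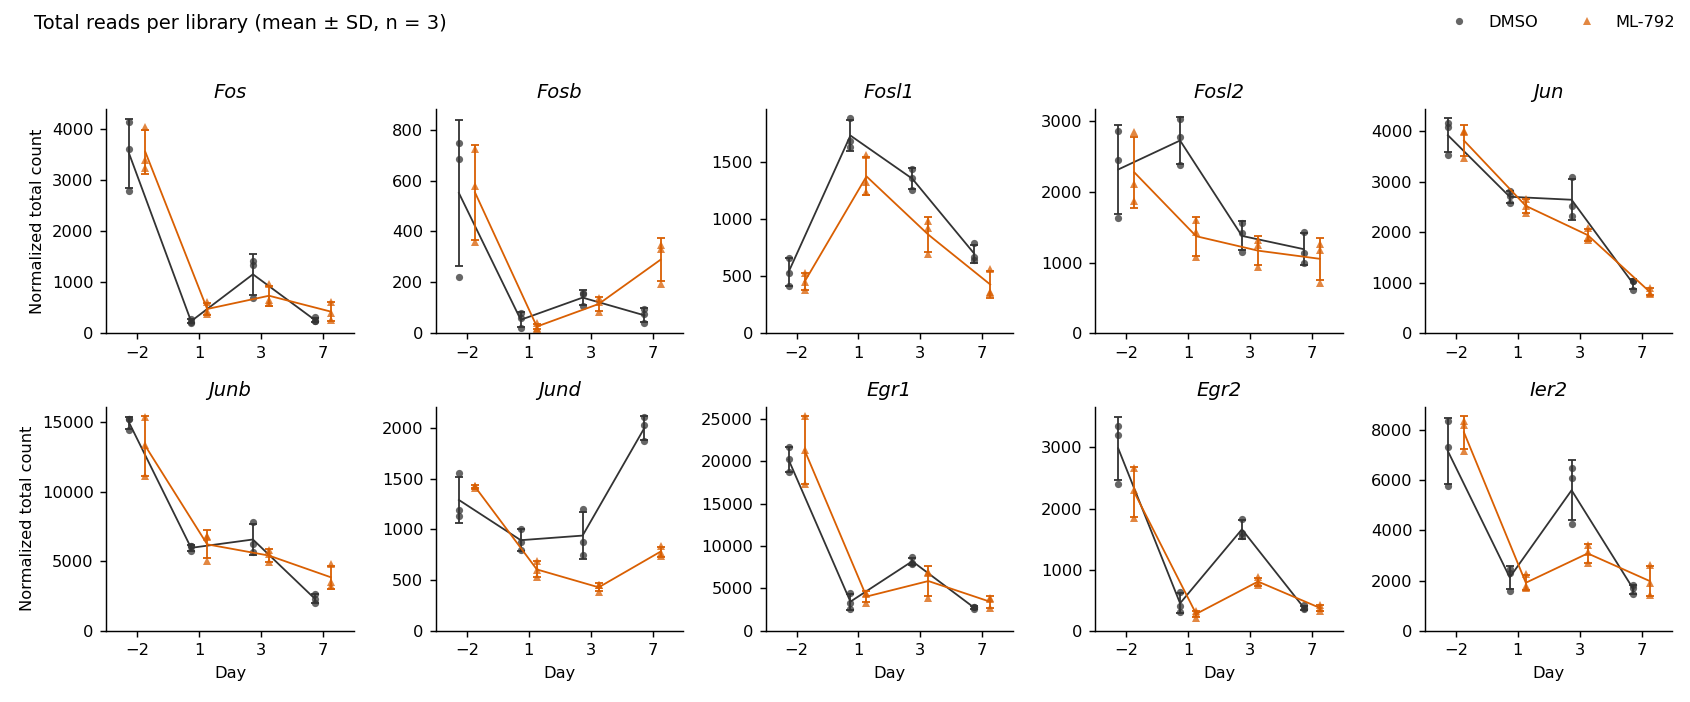
Normalised total reads (linear axis from 0) of each gene in every library, by day, for DMSO and ML-792; points are libraries and lines join the group means with bars of 1 SD (n = 3). Fosl1 is highest at day 1, and Jund in DMSO is highest at day 7, at 1869 to 2107 reads against 737 to 835 in ML-792.

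The labelled share, the percentage of a gene's reads that carried a T-to-C change, sets new RNA against what had accumulated. At day −2 in DMSO it averaged 23.9% for Fos, 20.8% for Egr2, 19.7% for Fosl1, 18.9% for Fosl2, 17.5% for Junb, 17.4% for Egr1, 17.2% for Ier2, 15.6% for Jun, 14.1% for Fosb and 5.30% for Jund. The median over 8496 genes with at least 500 pooled reads was 2.36%, and 10% of these genes were above 7.08%. Pooled over its libraries, Fos ranked 30 from the top of these genes, Egr2 57 and Jund 1426. The share depends on how many T bases a read covers and was not adjusted for that, so that neighbours in this order are not ranked further: the ranges of Fosl1 (17.9% to 21.2%) and Fosl2 (17.5% to 21.0%), for example, overlapped.

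Shares were lower after day −2, as were those of whole libraries. In DMSO Fos ranged between 5.36% and 8.15% per library at day 1 and between 12.2% and 17.4% at day 7, when its labelled counts were still 23.3-fold below day −2. Egr2 had 12.6%, 12.5% and 12.4% at day 7. These were among the highest of the 7619 genes with enough reads at day 7, with Fos at rank 31 and Egr2 at rank 40. In ML-792 at day 7 Fos had 9.27%, 4.78% and 5.95%, Egr2 3.00%, 3.44% and 7.64%, Ier2 4.13%, 3.70% and 4.59% against 11.0%, 6.93% and 11.6% in DMSO, and Egr1 3.53%, 2.49% and 3.72% against 9.23%, 7.98% and 10.8%. In each of these 4 genes every ML-792 library was below every DMSO library, as it was in Junb and Fosl2, 6 of the 9 members with enough reads in both treatments. The same held for 12.7% of 7089 genes, and the median over genes was 0.662% in ML-792 and 0.853% in DMSO.

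**Figure D4:**
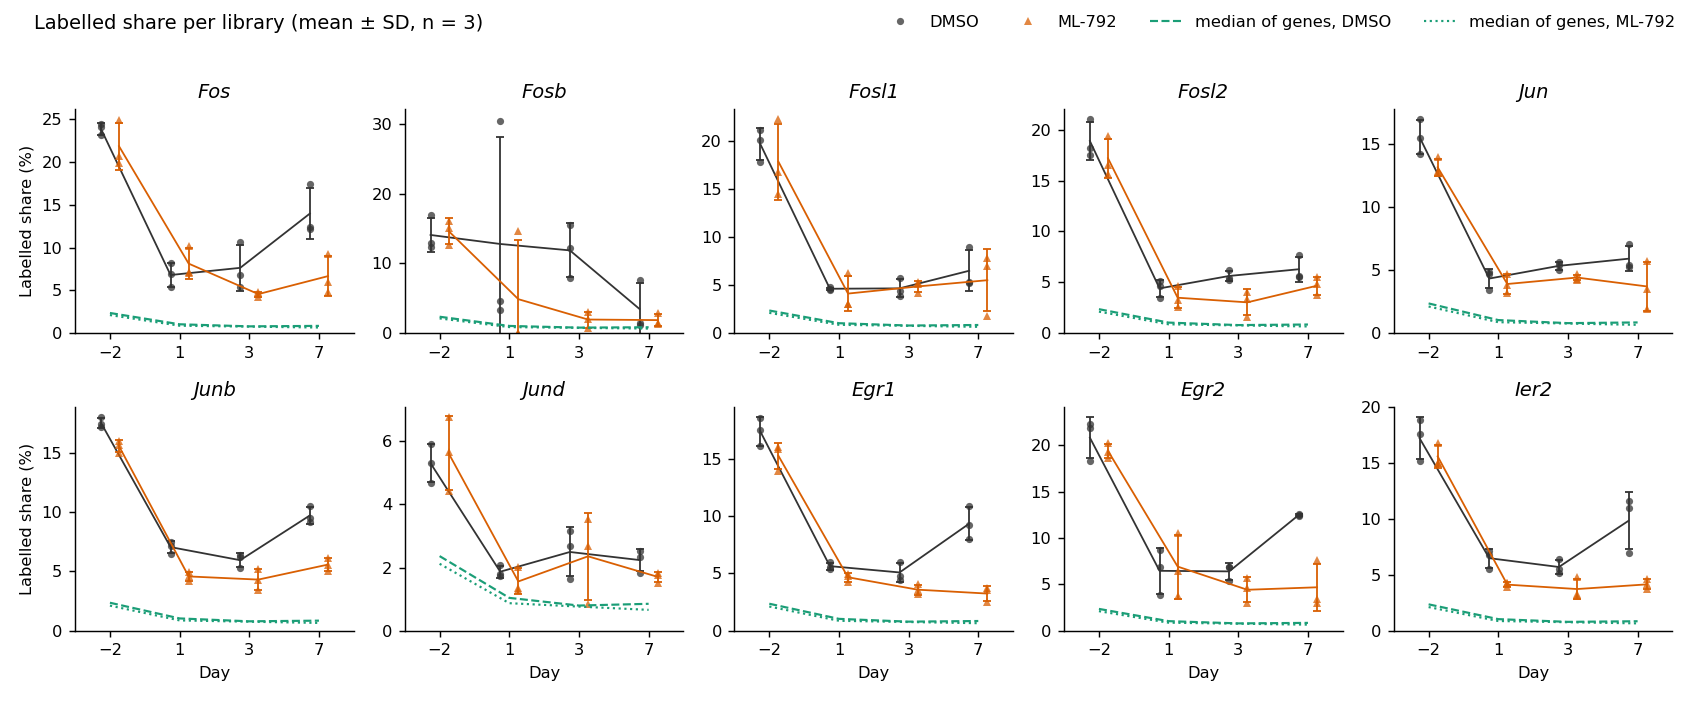
Labelled share in percent of each gene in every library, by day, for DMSO and ML-792, with bars of 1 SD (n = 3); the green lines give the median share over genes with at least 500 pooled reads. Most members lie well above that median on all days, with Fos at 23.9% and Jund at 5.30% on average at day −2 in DMSO.

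ML-792 was added to ask what loss of SUMO conjugation does to transcription during differentiation. In pre-adipocytes at day −2 no difference in counts passed the threshold. How long the day −2 cultures had been in ML-792 is not given in the sources used here. By edgeR 0 of the 10 genes were called at an adjusted p under 0.1 in labelled or total reads, with 0 at an unadjusted p under 0.05, and DESeq2 gave 0 and 0 as well. Of all entries 0% were called. The labelled log2 differences ran from -0.50 for Egr2 (SE 0.33) to 0.20 for Jund (SE 0.40), which does not show that levels were equal. Jun, Junb and Egr2 had all ML-792 libraries below all DMSO libraries in labelled reads, as 8.87% of all entries had in either direction, and Egr2 stood at 497, 443 and 372 against 748, 587 and 524. In labelled share, the percentage of a gene's reads that were labelled, Egr1, Jun and Junb had every ML-792 library below every DMSO library. The same held for 7.11% of 8469 genes.

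Under ML-792 the fall after day −2 also occurred, with 9, 9 and 10 members called lower in labelled reads at days 1, 3 and 7 (25%, 32.8% and 37.4% of all entries). Fos went from 805, 836 and 673 labelled reads at day −2 to 45.0, 43.0 and 26.3 at day 1, 31.5, 40.6 and 27.3 at day 3 and 23.3, 19.0 and 36.7 at day 7. The values of days 1 and 3 overlap, and no higher level at day 3 is seen. Between days 1 and 3 edgeR and DESeq2 each called 0 members in labelled reads, with 1 at an unadjusted p under 0.05 by each, and 2.9% of all entries were called by edgeR. Total reads of Egr2 (log2 fold change 1.55, SE 0.18, adjusted p = 2.2e-05) and Fosb (2.11, SE 0.37, adjusted p = 0.00058) were higher at day 3, where 10.4% of all entries were. The Fosb call was lost without replicate A (0.035) and without replicate C (0.011). Between days 3 and 7 edgeR called 0 members in labelled reads, with 3 at an unadjusted p under 0.05, while DESeq2 called 1 with 3, and 0.501% of all entries were called by edgeR. Here too the share of all entries at an unadjusted p under 0.05 was not counted.

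At day 1 ML-792 and DMSO differed in opposite directions for Fos and Fosl2. Fos had 45.0, 43.0 and 26.3 labelled reads in ML-792 against 18.7, 10.8 and 18.5 in DMSO, all ML-792 libraries being higher (log2 difference 1.24, SE 0.34, edgeR adjusted p = 0.075; 0.137% of all entries were called higher). Its total reads were 441, 612 and 367 against 272, 201 and 227 (1.02, SE 0.29, adjusted p = 0.043; 3.16% of all entries were called higher). Fosl2 had 52.7, 27.4 and 66.6 labelled reads against 155, 82.7 and 128, all lower (-1.31, SE 0.37, adjusted p = 0.084; 0.717% of all entries were called lower), and its total reads were lower by -0.99 (SE 0.23, adjusted p = 0.011; 3.33% of all entries were called lower). Jund (-0.56, adjusted p = 0.05) and Egr2 (-0.71, adjusted p = 0.057) were lower in total reads only. These day 1 calls rest on all 3 replicates: the labelled call of Fos was lost without A, B or C (adjusted p = 0.43, 0.3 and 0.19), and that of Fosl2 without A or C (0.47 and 0.27). In total reads all 4 genes were lost without A (0.1 to 0.51) and without C (0.11 to 0.18), and Fos (0.52) and Egr2 (0.23) without B.

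At day 3 the direction for Fos was the opposite, and it was joined by the EGR genes and Ier2. In labelled reads 5 of the 10 genes were called lower in ML-792, where 0.589% of all entries were called lower, and the median difference of the members was -1.16 against -0.10 for all entries. Ier2 had 102, 108 and 128 labelled reads in ML-792 against 218, 335 and 415 in DMSO. The ranges were well apart (log2 difference -1.52, SE 0.29, edgeR adjusted p = 0.0013). Egr2 had 42.4, 40.6 and 23.6 against 86.0, 127 and 107 (-1.58, SE 0.36, adjusted p = 0.017), and Egr1 219.7, 242 and 156 against 354, 482 and 416 (-1.02, SE 0.25, adjusted p = 0.039). Fos had 31.5, 40.6 and 27.3 against 73.9, 72.9 and 97.3 (-1.29, SE 0.32, adjusted p = 0.04). Fosb rested on 1 to 2 reads per ML-792 library against 11 to 16 in DMSO, a ratio of 0.125 with a 95% exact interval of 0.0386 to 0.316 (adjusted p = 0.046). In all 5 genes, and in 9 of the 10 in all, every ML-792 library was below every DMSO library, as in 13.3% of all entries in either direction. The exception was Fosl1, at 46.8, 29.2 and 52.1 against 82.7, 49.4 and 59.6.

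The day 3 calls in labelled reads were unequally carried by the replicates. Without replicate A, Ier2 and Egr2 were called and Fos (adjusted p = 0.39), Fosb (0.4) and Egr1 (0.23) were not. Without replicate B all 5 were called and Junb as well (-0.92, adjusted p = 0.043), and without replicate C 0 were called, with adjusted p of 0.12 for Ier2 to 0.5 for Fos. Scaled by labelled reads, 5 members were called lower, against 0.986% of entries.

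Total RNA at day 3 gave 5 calls, all lower in ML-792, where 6.54% of all entries were called lower. Jund had 447, 454 and 385 total reads in ML-792 against 876, 743 and 1198 in DMSO (log2 difference -1.13, SE 0.17, edgeR adjusted p = 4.4e-05). Egr2 had 749.5, 876 and 790.5 against 1600.0, 1834 and 1547 (-1.04, SE 0.21, adjusted p = 0.0013), and Ier2 3132, 3421 and 2683 against 4232, 6082 and 6463 (-0.86, SE 0.21, adjusted p = 0.0086). The ranges of these 3 genes did not overlap, as in 22.3% of all entries. Fosl1 (-0.65, adjusted p = 0.033) and Jun (-0.44, adjusted p = 0.038) were lower by less. Fos total reads overlapped, at 652, 955 and 593 against 696, 1342 and 1421 (-0.65, adjusted p = 0.18). Jun and Fosl1 were lost without replicate A (0.15 and 0.22) or C (0.56 and 0.14), Egr2 without A (0.1) and Ier2 without C (0.26), whereas Jund was called in each case. Markers of cell state also differed at day 3: 4 of 7 tested fibroblast and pre-adipocyte markers were called higher in ML-792 in total reads, and of 10 adipocyte markers 1 was called higher and 4 lower. The summed total reads of the former were 43267 to 57988 in DMSO and 61429 to 80186 in ML-792, and those of the latter 408075 to 539078 and 433167 to 492495. The part of these markers in the member values was not tested.

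**Figure D5:**
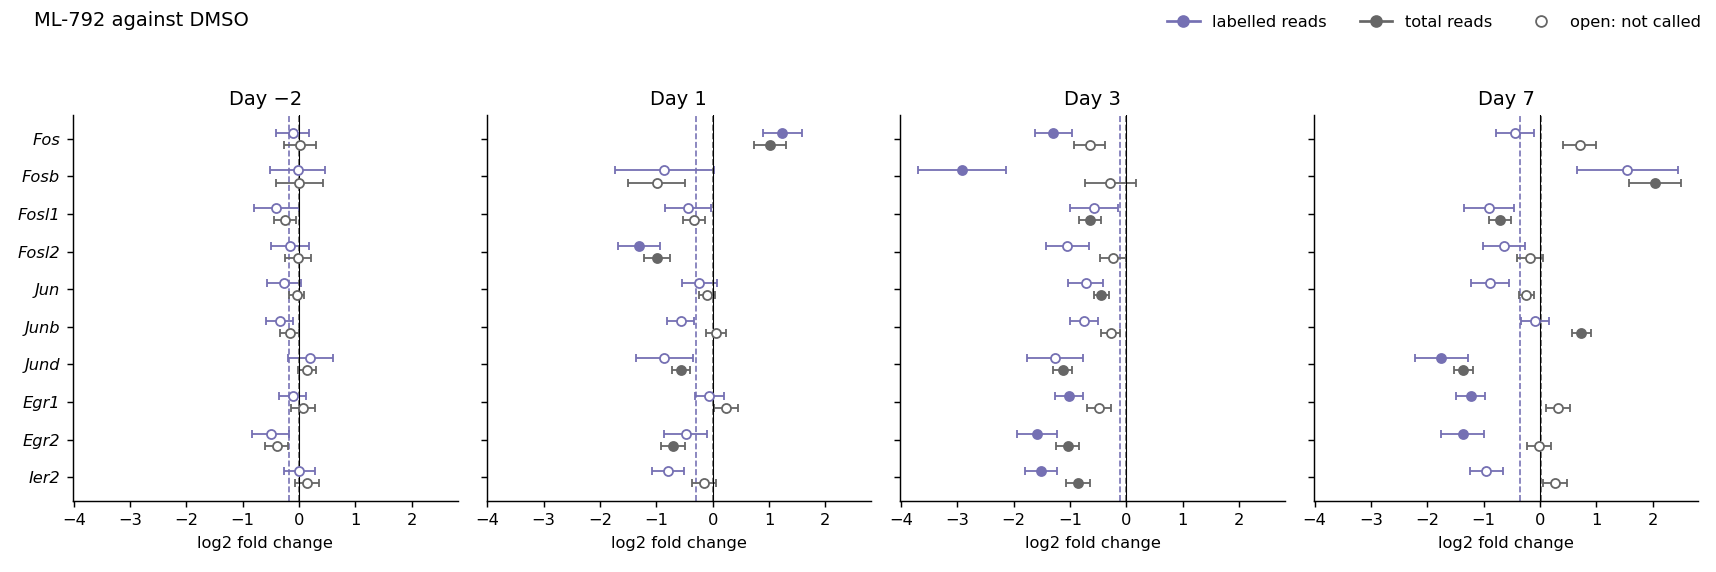
Log2 difference of ML-792 against DMSO on each day for labelled and total reads of each gene, with bars of 1 SE; filled points passed an adjusted p of 0.1 and dashed lines mark the median of all tested entries. At day 3 all 10 labelled differences lie left of 0, and Jund total reads lie left of 0 at days 1, 3 and 7.

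At day 7 Egr1 and Jund stood out. Egr1 had 93.3, 96.4 and 139.8 labelled reads in ML-792 against 259.6, 201 and 309 in DMSO, all lower (log2 difference -1.22, SE 0.26, edgeR adjusted p = 0.0076). Jund had 13.5, 12.7 and 13.6 against 49.5, 34.3 and 51.2 (-1.75, SE 0.47, adjusted p = 0.06), and Egr2 9.82, 12.7 and 32.6 against 45.0, 45.8 and 51.2 (-1.37, SE 0.38, adjusted p = 0.087). All ML-792 libraries of these 3 genes lay below the DMSO libraries (15.3% of all entries did not overlap), and 0.844% of all entries were called lower. Without replicate A none of the 3 was called (adjusted p = 0.33 to 0.49), without B Egr2 was not (0.21), and without C Egr1 (0.12) and Jund (0.45) were not. Scaled by labelled reads, only Egr1 was called (Jund adjusted p = 0.13, Egr2 0.24), where 0.761% of entries were called lower.

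In total reads at day 7 the genes split. Jund was lower, at 770.0, 835 and 737 reads in ML-792 against 2107, 1869 and 2028 in DMSO, with no overlap (log2 difference -1.36, SE 0.17, edgeR adjusted p = 6e-06), and so was Fosl1 (-0.71, SE 0.20, adjusted p = 0.027; 4.5% of all entries were called lower). Fosb was higher, at 345, 192 and 329.9 against 74.2, 40.6 and 95.5 (2.04, SE 0.46, adjusted p = 0.0064), as was Junb, at 3222, 3515 and 4804 against 2638, 2027 and 2258 (0.74, SE 0.17, adjusted p = 0.0082; 5.31% of all entries were called higher). In all 4 genes the libraries of the treatments did not overlap, as in 23.8% of all entries. Egr1 and Egr2, lower in labelled reads, were not called in total reads (0.33, adjusted p = 0.48, and -0.02, adjusted p = 0.99). Fosb was lost without replicate A (0.2), and Junb (0.35) and Fosl1 (0.44) without replicate C, whereas Jund was called in each case. At this day 4 of 7 fibroblast and pre-adipocyte markers were called higher in ML-792 and 1 lower, with sums of 73645 to 102787 total reads against 37733 to 63320 in DMSO, and 3 of 10 adipocyte markers were called higher, with sums of 919922 to 938599 against 683306 to 764363, and their part was not tested either.

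Whether the effect of ML-792 differed between days was tested with an interaction term over all 4 days. In labelled reads 1 member, Fos, was called (edgeR adjusted p = 0.017), where 0.245% of all entries were. With a replicate block in the fit, Egr1, Ier2 and Fosb were called as well. The share of all entries called with that block was not counted, and the 0.245% belongs to the fit without it. In total reads 5 members were called, Jund (adjusted p = 0.00045), Fosb (0.022), Junb (0.029), Fos (0.034) and Ier2 (0.061), where 9.77% of all entries were. The labelled Fos call was lost without replicate A (0.61) and without replicate C (0.37). In total reads without A Fosb, Jund, Ier2 and Junb were lost, leaving 1 call, without C Jund alone was called, and without B Fos (0.38) and Ier2 (0.17) were lost. A single term, chosen after the values were seen, asked whether the change from day 1 to day 3 differed between treatments. For Fos the labelled change differed by -2.53 on the log2 scale in ML-792 (SE 0.47, edgeR adjusted p = 0.012). Fos was the 1 entry called among the 10186 tested (0.00982%). Since the same values prompted the term, its p-values describe them and are not independent support. The term was not refitted with a replicate letter left out. The total reads of Fos gave -1.67 (SE 0.41, adjusted p = 0.023; 3.74% of all entries were called). The same term for Egr1 (-0.96, adjusted p = 0.41), Egr2 (-1.10, 0.59) and Ier2 (-0.73, 0.70) in labelled reads did not pass. A missed threshold does not show that their changes from day 1 were equal between treatments. At day 3 itself these genes were called lower in ML-792 in labelled reads, though none without replicate C and Egr1 not without replicate A.

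Genes near these in function were counted over time in the same way, where 18.6%, 31.7% and 28.6% of all entries were called lower in labelled reads at days 1, 3 and 7. Of 21 other immediate early genes 19 were tested in labelled reads, and 16, 17 and 17 were called lower at days 1, 3 and 7 in DMSO, with a median log2 fold change of -3.11 at day 1 against -2.90 for the members and -1.23 for all entries. Btg2, an antiproliferative early gene, changed by -4.91 at day 1 (edgeR adjusted p = 7.5e-16), Ctgf, a matricellular growth factor gene, by -6.62 (1.3e-15) and Plk2, a kinase gene, by -5.07 (2.4e-14). From day 1 to day 3 in DMSO 1 of the 19, Btg2, was called higher in labelled reads (1.69, edgeR adjusted p = 0.00015) and 2 lower. The 19 had a median change of -0.59 against -0.33 for all entries, and 1.48% of all entries were called higher. In total reads 2 of the 21 were called higher and 6 lower, where 9.36% and 9.7% of all entries were. Of 12 other AP-1, ATF and MAF leucine zipper genes 8 were tested and 5, 6 and 6 were called lower, with Atf3, a stress-induced factor gene, at -6.59 at day 1 (adjusted p = 3.7e-09) and Maff at -4.74 (1.1e-06). Of 16 regulators of these genes 13 were tested and 3, 7 and 4 were called lower, among them Srf, which encodes serum response factor, at -2.19 (adjusted p = 1.5e-05), and Nab2, a corepressor of EGR proteins, at -1.51 (0.0065). The regulators' counts are thus near those shares at days 1 and 7, and in total reads at day 1 only 2 of 16 were called, 1 in each direction. All 8 tested of 13 AP-1 target genes were called lower at day 7 and 6 at days 1 and 3, Ccl2, a chemokine gene, by -5.88 at day 1 (7e-15). The medians of these 3 lists at day 1 were -2.25, -1.61 and -3.54. Of 7 heat shock genes, which also respond quickly to stress, 3 were tested and 2, 2 and 1 were called lower, with Dnajb1, a chaperone gene, at -3.42 at day 1 (adjusted p = 7.4e-09). The 10 adipocyte marker genes went the other way, with 1, 10 and 10 called higher, and of 8 fibroblast and pre-adipocyte markers 7 were tested and 5, 7 and 7 were called lower.

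Between treatments 2, 3 and 2 of the 19 other immediate early genes were called lower in ML-792 in labelled reads at days 1, 3 and 7, where 0.717%, 0.589% and 0.844% of all entries were. At day 3 they were Btg2 (log2 difference -2.23, edgeR adjusted p = 5.2e-05), Dusp1, a phosphatase gene that shuts off MAP kinases (-1.99, 8e-05), and Zfp36, whose protein destabilises AU-rich mRNAs (-1.61, 0.0066). At day 1 they were Egr3 (-2.08, adjusted p = 0.0019) and Dusp1 (-1.12, 0.079), and at day 7 Ier5 (-1.75, 0.0076) and Dusp1 (-1.24, 0.05). In total reads their directions were mixed, with 1, 3 and 5 of 21 called higher and 3, 3 and 3 called lower at days 1, 3 and 7. Of the other AP-1, ATF and MAF leucine zipper genes 8 were tested in labelled reads, and 1 was called lower at day 7. Atf3, a gene of that list, was lower at day 7 (-4.88, edgeR adjusted p = 0.0055). Of the 8 tested AP-1 targets 1 was called higher in labelled reads at day 7, Ccl2 (2.07, 0.091), and 1 lower. In total reads 4, 4 and 4 of 12 tested AP-1 targets were higher at days 1, 3 and 7 (3.16%, 6.62% and 5.31% of all entries were called higher), and 2 at day 3 and 1 at day 7 were lower, with Ccnd1, the cyclin D1 gene, higher by 1.72 at day 3 (adjusted p = 1.7e-09) and 1.87 at day 7 (1.9e-09).

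The profile of mean labelled reads over the 8 combinations of day and treatment was set against that of 6214 genes, as a description over points that share libraries and the fall in labelling. The mean profile of the members was like those of Pitpna (r = 0.994), Zfp790 (0.993) and Pcyt2 (0.990). Egr1 was like Srsf6 (0.995) and Vps26a (0.994), and Jund most like Hspa5 (0.988), Cln8 (0.988) and Sel1l (0.987). For Fos the list was Micu3, Pnisr, Hmgcs1, Cacul1 and Col4a3bp, with r from 0.988 to 0.990, and 2 of those 5, Hmgcs1 and Cacul1, remained in its list when labelled counts were scaled by labelled reads.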

How the data were processed

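SLAMseq and QuantSeq reads of 24 libraries of 3T3-L1 cells were analysed. Per the labels and the study's methods, the authors made 3′ end libraries, aligned single reads to mm10 with SlamDunk v0.4.3 and deposited 2 tables of raw counts per RefSeq 3′UTR, all reads and reads with a T-to-C change. 6 columns per table matched no sample and were not used. In each table the column names gave day and letter, and day "2" was read as day −2.

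Members and companion lists were chosen with earlier results of these data known. Entries were fitted with edgeR 4.0.16 (quasi-likelihood, robust) in R 4.3.3, for DMSO and ML-792 time courses separately and for treatment by day over all libraries, with TMM factors of the total reads for both measures, edgeR's expression filter (10 reads, 15 in sum), and Benjamini-Hochberg adjustment over all tested entries. Calls needed an adjusted p under 0.01 over time and under 0.1 between treatments. Normalised counts are per mean effective library. Companion genes named were, per list and comparison, at most 3 with the smallest adjusted p; some items are not reported here. Scripts were tested on simulated data. Alternatives were another filter, 1 entry per gene, a replicate block, scaling by labelled reads, other sets of libraries, each letter left out, and DESeq2 1.42.0.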

Additional observations from a re-analysis of the deposited data

Results flagged for a closer look

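An F-test of the 3 interaction terms of day and treatment was run in edgeR with Benjamini-Hochberg adjustment. By it the effect of ML-792 was called different between the 4 days for 5 of the 10 genes, at an adjusted p under 0.1. Fos met this both in labelled reads, with an adjusted p of 0.017, and in its total reads, where that value was 0.034. In total reads it was also met by Jund (adjusted p = 0.00045), Fosb (adjusted p = 0.022), Junb (adjusted p = 0.029) and Ier2 (adjusted p = 0.061). The direction by day was as follows: Fos labelled reads were higher in ML-792 at day 1 in 3 of 3 libraries and lower at day 3 in 3 of 3. Jund total reads differed by 0.14, -0.56, -1.13 and -1.36 at days −2, 1, 3 and 7, and Fosb by 0.01, -0.99, -0.28 and 2.04. Junb differed by -0.17, 0.06, -0.28 and 0.74, and Ier2 by 0.14, -0.15, -0.86 and 0.26. In total reads 9.77% of all entries were called in this test and in labelled reads 0.245%. With 1 replicate letter left out, 1 to 4 members were called in total reads and 0 to 1 in labelled reads.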

How the results depend on the processing

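No change of direction occurred among the 155 calls of single members under any alternative. Of these calls 152 remained with a filter of at least 10 reads in sum, 155 with 1 entry per gene, 155 with a replicate block, 155 with DESeq2, and 108, 148 and 112 without replicates A, B and C. Scaling by labelled reads kept 58 of 69 and a fit of the 6 libraries of a day 15 of 23. The larger moves in the count of members called were these, with the count reported in brackets. With the loose filter, ML-792 day 7 against 3 gave 1 in labelled reads (0 before) and ML-792 against DMSO at day 1 gave 1 (2). With the replicate block, labelled reads gave 1 for DMSO day 7 against 3 (0), 2 for the same days in ML-792 (0), 5 for ML-792 against DMSO at day 7 (3) and 4 for the interaction (1), adding Egr1 (adjusted p = 0.017), Ier2 (0.019) and Fosb (0.08), besides smaller moves such as 7 (5) for ML-792 against DMSO at day 3, and total reads 6 for ML-792 day 3 against 1 (2). Same-letter residuals correlated by 0.194 on average in total reads (68 of 84 pairs over 0.1), against -0.0953 for different letters. In labelled reads these means were 0.0725 (23 of 84 pairs over 0.1) and -0.0361. Libraries of a letter thus shared part of their variation, more so in total reads, although no label ties a letter to a batch. The reported fits hold no block, so calls that move with the block depend on that choice. Scaled by labelled reads, DMSO day 3 against −2 gave 5 (9), and ML-792 against DMSO 1 at day 1 (2) and 1 at day 7 (3). With 6 libraries, ML-792 against DMSO gave 0 at day 1 (2) and 3 at day 3 (5) in labelled reads and 2 at day 1 (4) in total reads. DESeq2 gave 1, 1 and 2 in labelled reads for DMSO and ML-792 day 7 against 3 and the interaction, and 6 for ML-792 day 3 against 1 in total reads. The single term of day 3 against day 1 gave 1 in total reads (5 for the full interaction). Of the 5 genes most like Fos, 2 remained under labelled scaling. The cause of these moves was not tested. For the loose filter, the block, the fits of 6 libraries and DESeq2, the share of all entries called was not counted. Whether these moves are particular to the members can therefore not be read from them.

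Without 1 replicate letter, labelled counts of members called ran from 7 to 9 for DMSO days 1 and 3 against −2, 2 to 4 for DMSO day 3 against 1, 0 to 1 for ML-792 day 7 against 3, 0 to 2, 0 to 6 and 0 to 3 for ML-792 against DMSO at days 1, 3 and 7, and 0 to 1 for the interaction. Total counts ran from 6 to 7, 4 to 7 and 6 to 8 for DMSO days 1, 3 and 7 against −2, 3 to 6 for day 3 against 1 and 6 to 8 for day 7 against 3. In ML-792 they ran from 7 to 10, 8 to 10 and 6 to 9 for days 1, 3 and 7 against −2, 1 to 3 for day 3 against 1 and 0 to 5 for day 7 against 3. Between treatments they ran from 0 to 3, 2 to 5 and 2 to 4 at days 1, 3 and 7 and from 1 to 4 for the interaction.

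Labelled libraries held far fewer reads than total ones, and counts of Fosb and, under ML-792, of Jund were low. Changes of these genes in labelled reads are the least certain. Raw labelled counts were also low for Fos (12 to 22) and Jund (16 to 25) in DMSO at day 1. For Egr2 in ML-792 at day 7 they were 8 to 24. Comparisons that use these groups, those of Fos with DMSO day 1 included, are uncertain as well. The 3 replicates limit what a missed threshold can show.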
